A study of Bos taurus with 31 samples.

Results

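The genes described here are the subunits of the transcription factor NF-kappaB and the genes that hold its activity back, measured by RNA sequencing in bovine mammary epithelium. Members were the rows of the deposited count table that carry 1 of 10 listed gene symbols, and 9 of the 10 were found among 14084 rows: the subunit genes NFKB1, NFKB2, REL, RELA and RELB, the inhibitor gene NFKBIA, the nuclear inhibitor family gene BCL3, and the feedback genes TNFAIP3 and TNIP1. NFKBIZ, the tenth, was not analysed here. The rule uses the symbols alone and no measured value. The 31 libraries came from 16 dairy cows and fall into 2 groups. The virgin group holds 15 libraries from heifers at 14 months of age, and the lactating group holds 16 libraries from cows at 40 to 60 days of lactation. Of the 16 animals, 15 gave a library at each stage, and 1 gave a lactating library only, named L495 here. Each library was made from organoids, which are clumps of epithelium left when biopsied gland tissue is digested with collagenase, trypsin and hyaluronidase and single cells are spun away. Lactating biopsies were taken later in life and after calving, so that age, parity and date of biopsy go with stage and cannot be told apart from it.

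NF-kappaB is a dimer of Rel family proteins. In resting cells most dimers sit in the cytoplasm bound to inhibitor proteins of the IkappaB family, of which NFKBIA is the best known. Signals from receptors for cytokines such as tumour necrosis factor activate a kinase complex that marks NFKBIA for destruction, and the freed dimers enter the nucleus. NFKBIA, TNFAIP3, TNIP1, NFKB1, NFKB2, RELB and BCL3 are themselves textbook targets of NF-kappaB, so the pathway makes its own brakes. In the mammary gland NF-kappaB is known for roles in the branching of ducts, in involution and in the defence against infection.

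With each counted locus taken once, total counts ranged from 12477568 to 38794104 per virgin library and from 17637505 to 45478555 per lactating library. The lowest count of any member in any library was 462, so counting error is small beside the spread between animals. Libraries are named by stage and animal, so that V478 and L478 are the virgin and the lactating library of the same cow. The 7 genes for milk proteins held 5.13% to 51.5% of the counts in 14 lactating libraries, 0.577% in L478 and 0.243% in L538, and L478 and L538 thus stand apart from their group. Levels are given in CPM (counts of a gene scaled to a common library total) over totals rescaled by TMM, a factor that evens out the composition of libraries. TMM factors ran from 0.909 to 1.55 in virgin and from 0.596 to 1.21 in lactating libraries. Because the factors differ between the stages, values without them are given for each gene reported with its own values whose call they change.

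Lactating organoids held more RNA of 5 of the 9 NF-kappaB genes than virgin organoids. NFKB1, TNFAIP3, NFKBIA, BCL3 and TNIP1 rose, and none of the 9 fell. RELA, REL, NFKB2 and RELB did not pass the test. A log2 fold change (lactating minus virgin, so that 1 is a doubling) was called when its p from edgeR's quasi-likelihood test, adjusted by Benjamini and Hochberg over all 13180 rows tested, was under 0.05. By that rule 24.2% of all rows were higher in lactation and 30.9% were lower. The median log2 fold change was 0.59 over the 9 members and -0.08 over all rows. With the animal added as a block, 6 members rose against 27.9% of rows, and 0 fell against 27.8% of rows. Without TMM factors the median row moved to -0.56, and the split changed to 2 members higher (NFKB1 and TNFAIP3) and 1 lower (RELB), against 10.5% of rows higher and 58.8% lower. In a bulk sample a fall or rise in the share of cells of one type and a change in RNA per cell cannot be told apart.

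NFKB1 encodes a precursor that is cut to a DNA-binding subunit, the usual partner of the RELA protein. Its level in virgin libraries ran from 54.3 CPM in V610 through a median of 75.3 to 106 in V478. In lactating libraries it ran from 148 CPM in L509 through a median of 192 to 380 in L538. Every lactating library was above every virgin library, a separation that 1.15% of all rows showed and that no other member did. Without TMM factors the groups still did not overlap, though barely, with the highest virgin value at 110 CPM (V581) and the lowest lactating one at 111 CPM (L468). The mean rose from 77.0 ± 15.2 CPM (SD, n = 15) to 206 ± 63.6 CPM (SD, n = 16). This was a 2.67-fold rise (log2 fold change 1.42 ± 0.13 SE, edgeR adjusted p 3.19e-10), and NFKB1 was higher in lactation in 15 of 15 animals. The single animals differed in the size of the rise, from 0.91 to 2.60 on the log2 scale. The highest lactating values came from L538 and L478, the libraries low in milk protein counts, and without both the log2 fold change was 1.28 (edgeR adjusted p 1.01e-10).

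RELA encodes a subunit with a strong activation domain, found in the most studied NF-kappaB dimer. Its virgin libraries ran from 45.0 through a median of 57.3 to 187 CPM, and its lactating libraries from 68.6 through 81.4 to 93.7 CPM. The lactating libraries were the tightest of any member, with a highest level 1.37 times the lowest, whereas the virgin libraries spread over 4.16 times. A single library, V479, set the upper end of the virgin range and lay above every lactating one. Over all libraries the log2 fold change of RELA was 0.22 ± 0.14 (SE, edgeR adjusted p 0.187), and RELA was higher in lactation in 14 of 15 animals, the exception being the cow of V479. With the animal as a block, which leaves out L495, it was 0.32 (adjusted p 0.0316), and without V479 it was 0.40 (adjusted p 5.79e-05). Without TMM factors the sign turned, to -0.22 (adjusted p 0.166).

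REL, the subunit first found as a retroviral oncogene and prominent in lymphocytes, ran from 131 through 274 to 486 CPM in virgin libraries and from 202 through 324 to 490 CPM in lactating ones. The groups overlapped in large part, with 1 lactating library above every virgin one and 6 of 15 virgin libraries below every lactating one. Its log2 fold change was 0.28 ± 0.17 (SE, edgeR adjusted p 0.167) with 10 of 15 animals higher, and it was -0.15 without TMM factors. The counted REL locus was 2.09 times as long as the RefSeq gene, so reads from outside the gene may be included.

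NFKB2 and RELB form the dimer of the alternative pathway, which is switched on by receptors such as LTBR through the kinase MAP3K14. Both were counted jointly with a neighbouring gene: the NFKB2 row has the same counts as GBF1, and the RELB row the same counts as CLASRP, in every library. NFKB2 with GBF1 ran from 96.4 through 130 to 300 CPM in virgin and from 134 through 163 to 235 CPM in lactating libraries. Its log2 fold change was 0.21 ± 0.13 (SE, edgeR adjusted p 0.179), with 12 of 15 animals higher. Here too V479 was the highest virgin library, and without it the value was 0.32 (adjusted p 0.0126), whereas without TMM factors it was -0.22 (adjusted p 0.144). RELB with CLASRP ran from 28.8 through 45.8 to 75.4 CPM in virgin and from 36.1 through 45.4 to 62.9 CPM in lactating libraries, with all lactating values inside the virgin range. The log2 fold change was -0.01, with a 95% interval from -0.28 to 0.25 and an edgeR adjusted p of 0.938, and 9 of 15 animals were higher. Without TMM factors RELB fell by 0.44 on the log2 scale (adjusted p 0.00619). How much of these joint counts comes from NFKB2 and RELB cannot be told apart from their neighbours' share.

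**Figure D1:**
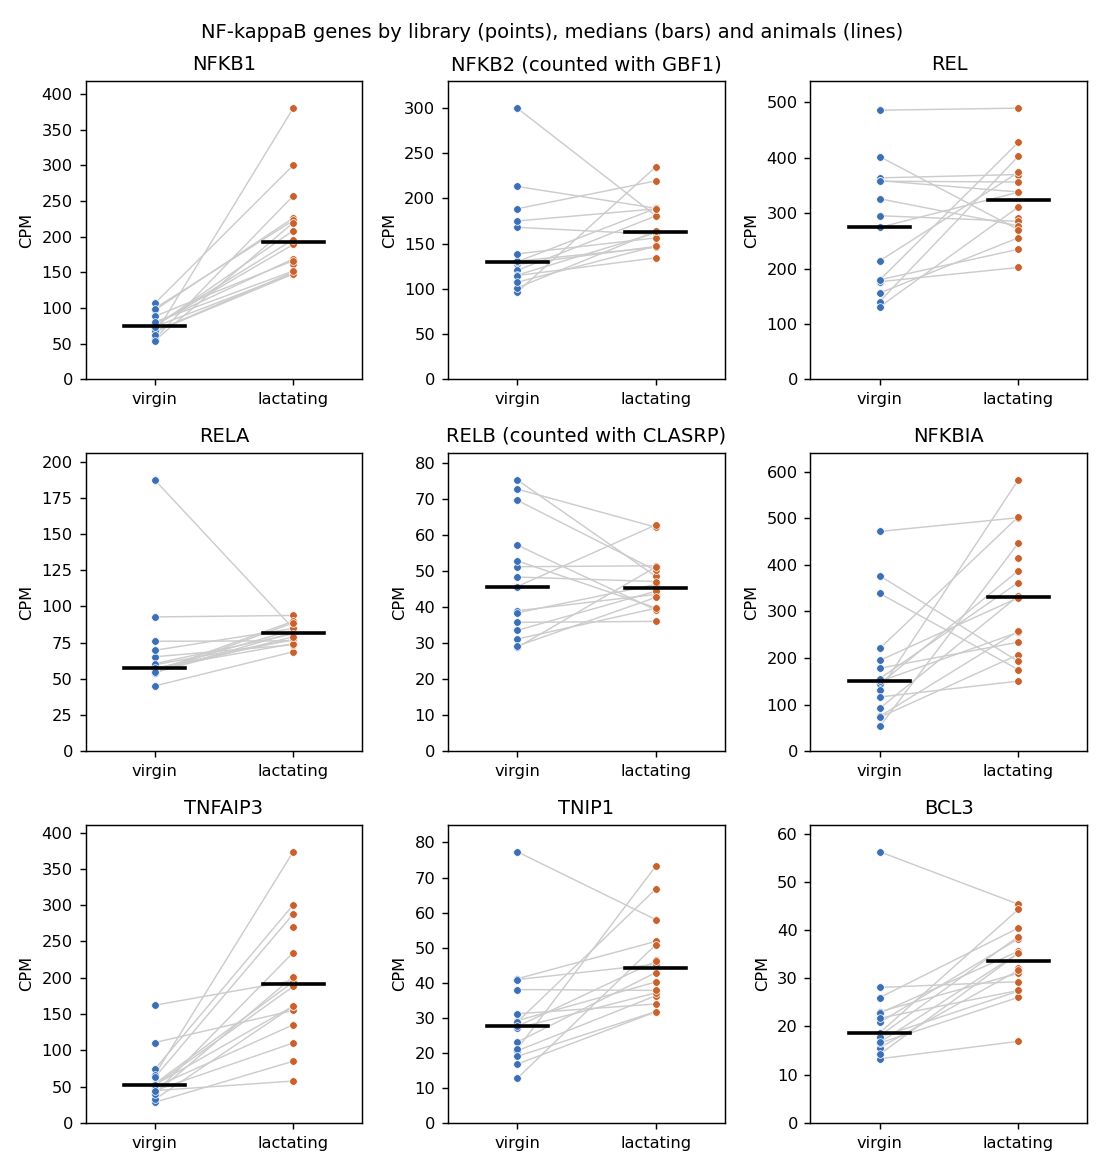
Level in CPM (vertical axis of each panel, starting at 0) of the 9 genes in 15 virgin (blue) and 16 lactating (orange) libraries; bars are group medians and grey lines join libraries of 1 animal. NFKB1 separates the stages with no overlap, and V479 is the isolated high virgin point for NFKB2, RELA, TNIP1 and BCL3.

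NFKBIA encodes IkappaB alpha, which holds NF-kappaB dimers in the cytoplasm and is among the first genes they induce. Virgin libraries ran from 53.0 CPM in V610 through a median of 150 to 472 in V479, and lactating libraries from 150 in L615 through 331 to 583 in L502. This was the widest spread among virgin libraries of any member, 8.91 times between the lowest and the highest, and the groups overlapped, with 3 lactating libraries above all virgin ones. The mean rose from 185 ± 121 CPM (SD, n = 15) to 333 ± 131 CPM (SD, n = 16). The log2 fold change was 0.85 ± 0.26 (SE, edgeR adjusted p 0.00639). NFKBIA was higher in lactation in 13 of 15 animals and lower in the pairs V478 with L478 and V581 with L581, at -0.95 and -0.97 in log2 units. Without TMM factors the log2 fold change was 0.38 and did not pass the test (adjusted p 0.0922).

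BCL3 encodes an IkappaB relative that works in the nucleus, where it binds homodimers of the NFKB1 and NFKB2 products. Its virgin libraries ran from 13.3 CPM in V478 through a median of 18.7 to 56.2 in V479, and its lactating libraries from 16.9 in L478 through 33.6 to 45.4 in L479. With TMM factors the extremes at both stages thus came from the same cows, with V478 and L478 at the low end and V479 and L479 at the high end. L479 had the lowest TMM factor, 0.596. Without the factors V478, L478 and V479 kept these places, but the highest lactating value, 35.3 CPM, did not come from L479. The log2 fold change was 0.61 ± 0.16 (SE, edgeR adjusted p 0.00189), with 14 of 15 animals higher and the cow of V479 lower. Without TMM factors it was 0.11 (adjusted p 0.491).

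TNFAIP3, also called A20, encodes a ubiquitin-editing enzyme that takes signalling proteins of the tumour necrosis factor receptor out of action. It had the largest rise of the 9 genes. Virgin libraries ran from 28.4 CPM in V531 through a median of 51.7 to 162 in V478, and lactating libraries from 57.7 in L615 through 191 to 374 in L507. The groups overlapped only in part, since 9 lactating libraries lay above every virgin one and 10 virgin libraries lay below every lactating one. The mean went from 60.9 ± 34.4 CPM (SD, n = 15) to 194 ± 83.5 CPM (SD, n = 16), a 3.19-fold rise. The log2 fold change was 1.67 ± 0.24 (SE, edgeR adjusted p 6.60e-07), and TNFAIP3 was higher in 15 of 15 animals, by 0.27 to 2.53.

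TNIP1 encodes ABIN1, a protein that binds ubiquitin chains and brings TNFAIP3 to its substrates. It ran from 12.7 CPM in V610 through 27.5 to 77.4 in V479 among virgin libraries, and from 31.7 in L531 through 44.1 to 73.2 in L538 among lactating ones. Apart from V479 the lactating libraries lay largely above the virgin ones, and 11 virgin libraries were below every lactating one. The log2 fold change was 0.59 ± 0.18 (SE, edgeR adjusted p 0.00680), with 13 of 15 animals higher. Without TMM factors it was 0.15 (adjusted p 0.407).

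**Figure D2:**
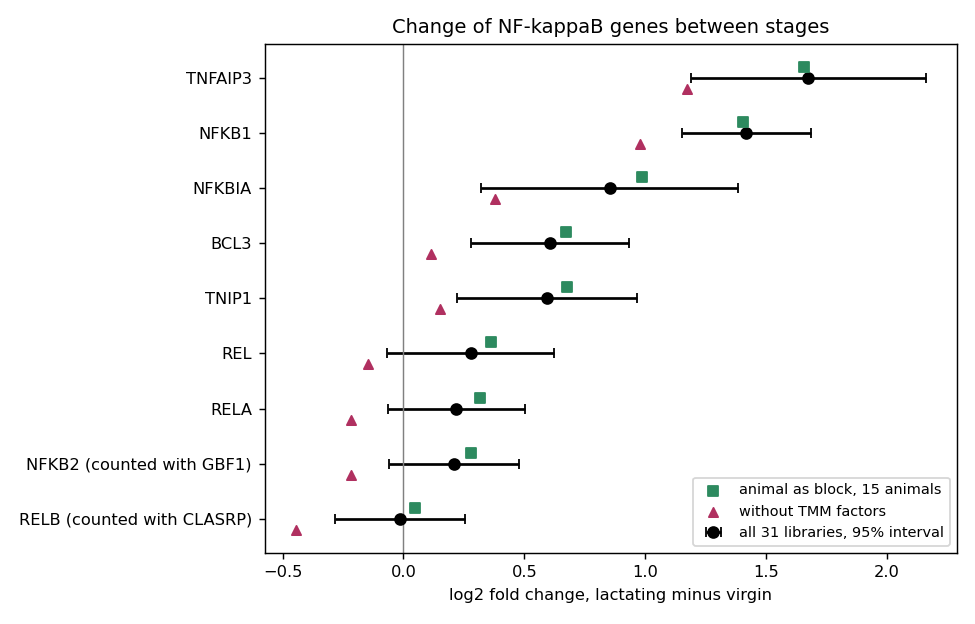
Log2 fold change (horizontal axis, lactating minus virgin) of the 9 genes over all 31 libraries with the 95% interval (black), with the animal as a block (green squares) and without TMM factors (red triangles). The intervals of TNFAIP3, NFKB1, NFKBIA, BCL3 and TNIP1 lie above 0, and leaving out the TMM factors moves every gene to lower values.

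The highest virgin value of all 9 genes came from V479 (NFKB2, RELA, NFKBIA, TNIP1 and BCL3) or V478 (NFKB1, REL, RELB and TNFAIP3). These were also the virgin libraries with the lowest TMM factors, 0.909 and 0.954 against a virgin median of 1.24. V610, with the highest factor at 1.55, was lowest for NFKB1, REL, NFKBIA and TNIP1. Without TMM factors V479 was still the highest virgin library for NFKB2, RELA, NFKBIA, TNIP1 and BCL3, and V478 for TNFAIP3, whereas NFKB1, REL and RELB peaked in V581, V598 and V490. In V478 the digestion response genes summed to 24096 CPM, the highest of any virgin library against a median of 5665. Its lymphocyte, macrophage and endothelial markers were the lowest of any virgin library, at 6.22, 16.6 and 35.2 CPM. V479 differed from V478 here, with the same markers at 35.7, 68.99 and 347 CPM, each above the virgin median. The digestion response genes summed to 11518 CPM in V479, also above the virgin median. The part of these features in the member levels was not tested. With V478 and V479 both left out, a choice made after the values were seen, 7 members rose, the added ones being RELA (0.39 in log2 units, edgeR adjusted p 1.22e-04) and NFKB2 (0.38, 0.00203).

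A ratio of 2 genes within a library does not depend on how the library is scaled. Ratios are given per length of counted locus, and the differences below are free of that length. The ratio of NFKB2 to NFKB1 fell by 1.12 on the log2 scale between the stages. Its virgin values ran from 0.26 through a median of 0.66 to 1.82 and its lactating values from -0.86 through -0.30 to -0.03, so that the groups did not overlap and 0 of 15 animals had a higher ratio in lactation. A two-sided permutation test with 100000 resamples gave p = 1e-05, the smallest it can give, and 7e-05 after adjustment over the 7 ratios tested. NFKB1 thus gained on the NFKB2 row, which includes GBF1. The ratio of TNFAIP3 to its partner gene TNIP1 rose by 1.00 on the log2 scale, a 2.00-fold change (permutation adjusted p 2.10e-04), in 13 of 15 animals.

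NFKBIA gained on RELA by 0.70 (permutation adjusted p 0.0171), in 11 of 15 animals, and an exact sign-flip test over the 15 pairs of libraries gave 0.67 with an adjusted p of 0.0832. The other 4 ratios did not pass. RELB to RELA differed by -0.27 (adjusted p 0.140), and without V479 by -0.33 (0.0453). NFKBIA to NFKB1 differed by -0.38 and BCL3 to NFKBIA by -0.34 (both 0.212), and REL to RELA by 0.05 (0.851). Ratios to RELA, chosen after the values were seen because RELA did not pass and these genes did, are given as a description with no test. On this footing NFKB1 was higher in lactation by 1.08 on the log2 scale, TNFAIP3 by 1.38, TNIP1 by 0.37 and BCL3 by 0.36. Without V479 these differences were 0.97, 1.27, 0.37 and 0.35.

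**Figure D3:**
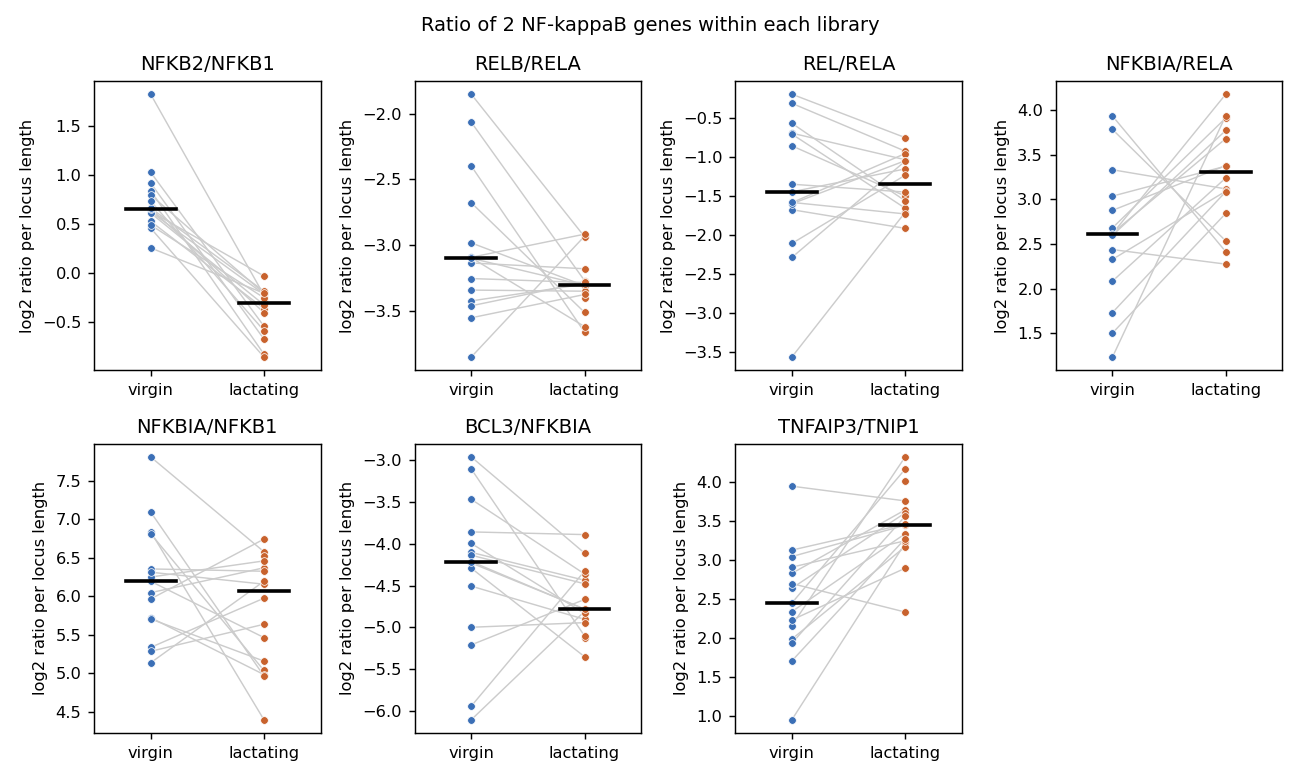
Log2 ratio of 2 genes per length of counted locus (vertical axis) in 15 virgin (blue) and 16 lactating (orange) libraries; bars are medians and lines join libraries of 1 animal. The NFKB2 to NFKB1 ratio is lower in every lactating library than in every virgin one, while REL to RELA and NFKBIA to NFKB1 overlap widely.

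With TMM factors, lactating libraries were more alike than virgin ones for 7 of the 9 genes. The SD of log2 CPM was 0.49 in virgin and 0.12 in lactating libraries for RELA, 0.45 and 0.22 for NFKB2, and 0.90 and 0.59 for NFKBIA, given as a description with no test. The exceptions were NFKB1, at 0.28 and 0.40, and TNFAIP3, at 0.65 and 0.70. Without TMM factors NFKB2 ran from 135 to 272 CPM in virgin and from 96.7 to 228 CPM in lactating libraries. RELB then ran from 38.6 to 78.0 CPM and from 26.6 to 76.1 CPM. On the log2 scale the lactating range was thus the wider one for both without the factors. Levels of 1 gene at the 2 stages were compared over the 15 animals with both libraries. For BCL3 the correlation was 0.50 (Pearson r, with Spearman rho = 0.46, permutation p = 0.0674 and 0.0832, adjusted 0.452 and 0.406). For TNFAIP3 it was 0.38 (rho = 0.46, permutation p = 0.168 and 0.0901, adjusted 0.452 and 0.406). Without the 2 animals farthest from the median, r was 0.49 for BCL3 and 0.62 for TNFAIP3, and without TMM factors 0.48 and 0.56. None of the 9 genes passed after adjustment, and NFKB1 and NFKBIA had r near 0 (0.0049 and -0.02).

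Within each stage the members were also compared with each other, a step added after the values were seen, over 36 pairs at each stage with p adjusted over all 72. In virgin libraries 7 pairs passed in both r and rho, and in lactating libraries 8 did. The strongest virgin pairs joined NFKBIA with TNIP1 (r = 0.87, rho = 0.88, permutation adjusted p 0.00144 and 9.60e-04) and with NFKB2 (r = 0.87, rho = 0.90, 7.20e-04 and 9.60e-04). Leaving out the 2 libraries farthest from the median gave 0.77 and 0.79. The strongest lactating pair was NFKB1 with NFKB2 (r = 0.83, rho = 0.81, adjusted p 0.00168 and 0.00228, and 0.75 without 2 libraries). NFKBIA paired with BCL3 (r = 0.78, rho = 0.84, adjusted p 0.00187 and 0.00115) and with TNFAIP3 (r = 0.75, rho = 0.77, adjusted p 0.00535 and 0.00640) in lactating libraries, and 0.77 and 0.76 were left without 2 libraries. NFKB1 and NFKBIA went together in virgin libraries (r = 0.70, rho = 0.69, adjusted p 0.0180 and 0.0241, and 0.55 without 2 libraries) and had r = -0.03 in lactating ones, a difference that was not tested.

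Genes of 1 library share its scaling factor, and this weighs on all such pairs. Without TMM factors the median r of the 36 pairs was 0.11 in virgin libraries against 0.46 with them, and 0.34 against 0.40 in lactating ones. The pairs NFKBIA with TNIP1 and NFKBIA with NFKB2 were then at 0.78 and 0.75 in virgin libraries, and NFKB1 with NFKB2 at 0.93 in lactating ones. In lactating libraries every pair of subunit genes had a higher r without the factors, so the 0.93 is not particular to its pair. REL with RELA moved from 0.08 to 0.81 and RELA with RELB from 0.30 to 0.83, whereas NFKBIA with TNFAIP3 moved from 0.75 to 0.61. NFKB1 with NFKBIA in virgin libraries was then at 0.15, and NFKBIA with BCL3 in lactating libraries at 0.35. The strength of the last 2 pairs thus depends on the scaling.

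**Figure D4:**
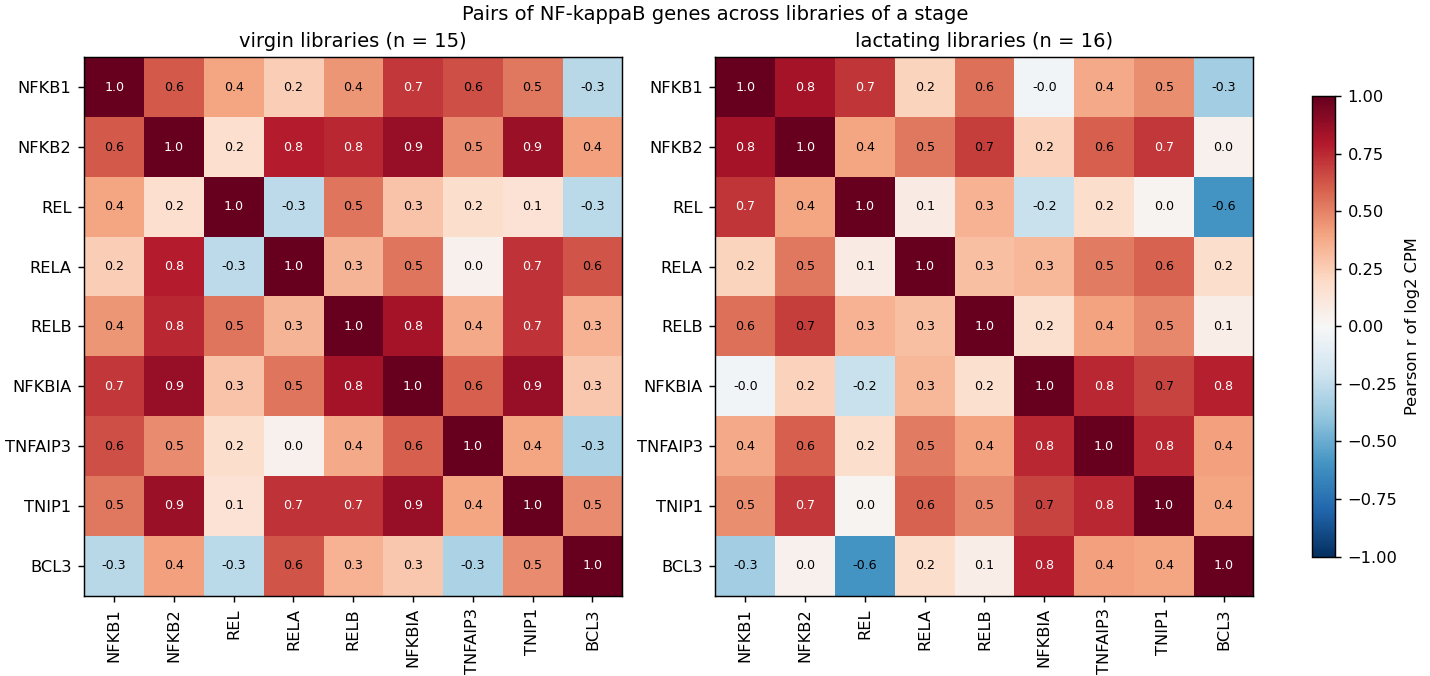
Pearson r of log2 CPM between each 2 of the 9 genes, over 15 virgin libraries (left) and 16 lactating libraries (right), with red for positive and blue for negative values. The highest virgin values are among NFKB2, RELB, NFKBIA and TNIP1, and the highest lactating ones are NFKB1 with NFKB2 (0.83), NFKBIA with BCL3 (0.78), TNFAIP3 with TNIP1 (0.76) and NFKBIA with TNFAIP3 (0.75).

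Among 8955 other genes, those whose deviations from their stage mean ran most like the members over the 31 libraries were found by their mean Pearson r with the 9 genes. CX3CL1, a membrane-bound chemokine, came first with a mean r of 0.60. The cell cycle inhibitor gene CDKN1A (0.58), the histone gene H2AFJ (0.57), the autophagy receptor gene SQSTM1 (0.56) and the dipeptidase gene CNDP2 (0.56) followed. The next 3 names, TMEM88, CYB5D1 and KDM6B at 0.55, are 1 joined locus. The median over the genes compared was -0.02, and all values share the libraries and their scaling. Of these genes CDKN1A rose between the stages by 1.05 in log2 units (edgeR adjusted p 8.18e-04), SQSTM1 by 1.43 (1.36e-05) and the TMEM88 locus by 0.81 (2.21e-05), while CX3CL1 was at 0.20 (0.631).

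Upstream of NF-kappaB, ligand genes were mostly higher in lactation. Of 7 ligand genes tested, 5 rose and 1 fell, with a median log2 fold change of 1.52. Of all rows 24.2% rose and 30.9% fell. Without TMM factors 4 ligand genes rose and 1 fell (median 0.92), against 10.5% of all rows higher and 58.8% lower. IL1A, an alarm cytokine, went from 1.46 ± 0.785 CPM (SD, n = 15) to 9.47 ± 10.9 CPM (SD, n = 16). Its log2 fold change was 2.70 (edgeR adjusted p 1.27e-06), with 15 of 15 animals higher. TNFSF10, the death ligand TRAIL, rose by 1.52 (adjusted p 8.76e-07), on a locus 5.37 times as long as the RefSeq gene. The remaining risers, named after their values were seen, were IL1B (1.75), TNF (1.55) and LTB (0.84, and 0.41 with adjusted p 0.135 without TMM factors). TNF, the archetypal inducer of the pathway, did not pass with the animal as a block (1.08, adjusted p 0.0798). TNFSF11, the ligand RANKL that acts in the growth of mammary alveoli, fell by 1.68 on the log2 scale (adjusted p 4.04e-05), between mean levels of 0.581 and 0.178 CPM.

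Receptor genes showed a similar split, with 5 of 9 higher, 1 lower and a median of 0.52. Of all rows 24.2% rose and 30.9% fell. Without TMM factors 4 receptor genes rose and 1 fell (median 0.08), against 10.5% of all rows higher and 58.8% lower. TNFRSF1B, the second receptor for tumour necrosis factor, ran from 92.1 through 119 to 234 CPM in virgin and from 243 through 314 to 448 CPM in lactating libraries. Its stages did not overlap with TMM factors, a separation shown by 1.15% of all rows, but did without them. The log2 fold change of TNFRSF1B was 1.33 ± 0.12 (SE, edgeR adjusted p 2.33e-10). TNFRSF1A, the main receptor, rose by 1.01 (adjusted p 5.44e-06), and IL1R1, counted with IL1R2, by 1.02 (1.22e-08). TNFRSF21, a death receptor, fell by 0.36 on the log2 scale (adjusted p 0.00437).

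Between receptor and kinase the genes were divided. Of 17 adaptor and ubiquitin ligase genes, 6 rose and 7 fell (median -0.08, and 1 and 9 without TMM factors), and BIRC2 and BIRC3 were 1 joined locus within that list. RIPK1, the kinase scaffold of the receptor complex, ran from 40.8 through 49.8 to 63.8 CPM in virgin and from 65.0 through 74.8 to 96.8 CPM in lactating libraries, with no overlap (log2 fold change 0.61 ± 0.07 SE, edgeR adjusted p 1.69e-08). Without TMM factors its stages overlapped and the value was 0.13 (adjusted p 0.369). With them 1.15% of all rows separated the stages as RIPK1 did. TRAF1, itself an NF-kappaB target, rose by 1.70 (2.15e-06), whereas TRAF3IP2, an adaptor of interleukin receptors, fell by 1.04 in 15 of 15 animals (1.84e-07). Among 12 kinase genes 4 fell and 1 rose, with a median of -0.12, and 8 fell and 0 rose without TMM factors. Of all rows 24.2% rose and 30.9% fell, with a median of -0.08. Without TMM factors 10.5% rose and 58.8% fell, with a median of -0.56. Lactating IKBKG values (3.49 to 5.38 CPM) barely touched the virgin range (5.37 to 8.69 CPM). IKBKG, the regulatory subunit of the IkappaB kinase, fell by 0.64 (3.62e-07) and IKBKB, a catalytic subunit, by 0.44 (2.22e-04). The counted IKBKG locus was 0.37 times as long as the RefSeq gene. MAP3K14, the kinase of the alternative pathway, fell by 1.49 (1.91e-05), in 13 of 15 animals. MAP3K3 rose by 0.33 (0.00166), and without TMM factors was at -0.15 (0.273).

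Of 19 further inhibitors and deubiquitinases, 12 rose and 2 fell with TMM factors (median log2 fold change 0.39), and 4 rose and 5 fell without them (median -0.11). TNIP3, a relative of TNIP1, rose by 3.57 (edgeR adjusted p 2.18e-07) from 0.188 to 2.23 CPM, and its count was 0 in at least 1 virgin library. The ubiquitin ligase ITCH, which works with TNFAIP3, fell by 0.84 (1.55e-06), and OTUD7B, counted with MTMR11 and SF3B4, fell by 0.55 (4.32e-06). Over the 64 pathway genes tested in these 5 lists, 29 rose and 15 fell, against 24.2% of all rows higher and 30.9% lower. Without TMM factors the split was 13 higher and 24 lower, against 10.5% of all rows higher and 58.8% lower. The balance of rises over falls thus depends on that scaling, for the pathway as for all rows.

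Of 28 textbook NF-kappaB target genes, 14 rose and 2 fell, with a median log2 fold change of 0.76. Of all rows 24.2% rose and 30.9% fell. Without TMM factors 11 of the target genes rose and 5 fell, against 10.5% of all rows higher and 58.8% lower. IRF1, a transcription factor of the interferon response, ran from 39.5 through 58.7 to 111 CPM in virgin and from 162 through 284 to 527 CPM in lactating libraries. CD83, a surface protein of activated immune cells, ran from 10.6 through 18.8 to 57.8 CPM and from 71.4 through 140 to 335 CPM. BCL2A1, a survival gene of the BCL2 family, ran from 0.138 through 1.08 to 3.05 CPM and from 6.17 through 19.5 to 49.6 CPM. In none of these 3 genes did the stages overlap, with or without TMM factors. With TMM factors 1.15% of all rows had every lactating library above every virgin one. The log2 fold changes of IRF1, CD83 and BCL2A1 were 2.42, 2.78 and 4.08 (edgeR adjusted p 5.74e-13, 3.35e-11 and 7.75e-11). With TMM factors L507 was the highest library and L615 the lowest lactating library for IRF1, CD83 and BCL2A1, as they were for TNFAIP3. Without them L615 stayed the lowest lactating library for these genes, and L507 stayed the highest for CD83 and BCL2A1. For IRF1 and TNFAIP3 L507 was then not the highest. CCND1, the cyclin gene, fell by 1.33 (4.22e-08), in 15 of 15 animals, and MMP9, named after its value was seen, fell by 1.92 (4.73e-04), between mean levels of 0.643 and 0.166 CPM. The counted loci of IRF1 and CCND1 were 1.82 and 2.69 times as long as the RefSeq genes.

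**Figure D5:**
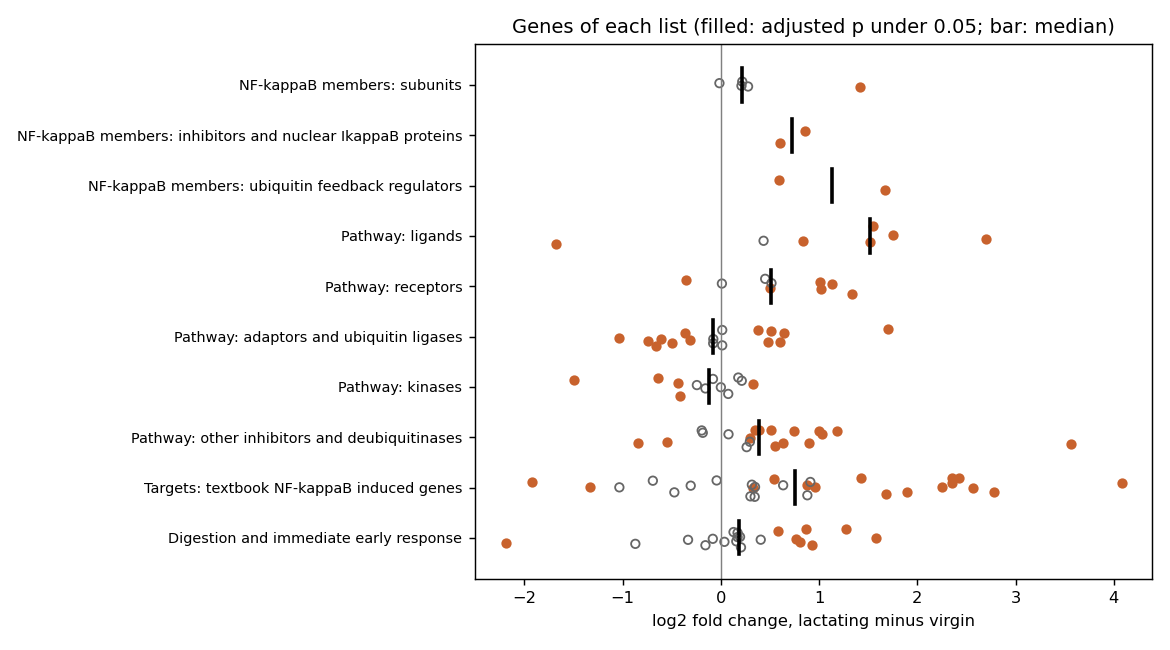
Log2 fold change (horizontal axis, lactating minus virgin) of each tested gene by list, filled where the edgeR adjusted p was under 0.05, with a bar at the list median. The medians of ligands (1.52) and targets (0.76) lie to the right of 0 and those of kinases (-0.12) and adaptors (-0.08) just to its left, and each of these lists has genes on both sides. The median over all rows was -0.08.

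Digestion of tissue with warm enzymes can itself induce NF-kappaB targets and immediate early genes. Of 20 genes of that response tested, 7 rose and 1 fell, with a median of 0.18, against 24.2% of all rows higher and 30.9% lower. With the animal as a block 8 rose and 0 fell, against 27.9% and 27.8% of rows. Without TMM factors 3 rose and 6 fell (median -0.25), against 10.5% and 58.8% of rows. The summed level of these 20 genes ran from 3945 through a median of 5665 to 24096 CPM in virgin libraries. In lactating libraries it ran from 6857 through 9435 to 12320 CPM. Of 15 virgin libraries, 8 lay below every lactating one, and V478 and V490 lay above every lactating one. SOCS3 rose by 1.27 (edgeR adjusted p 2.15e-06), BTG2 by 1.57 (7.26e-05) and KLF4 by 0.80 (2.25e-04, and 0.36 with 0.0856 without TMM factors). The counted loci of SOCS3 and BTG2 were 1.76 and 6.67 times as long as the RefSeq genes. The heat shock gene HSPA1A fell by 2.19 (0.00274), although it was higher in 8 of 15 animals, and it did not pass with the animal as a block (-0.48, adjusted p 0.570). The part of digestion in the member levels was not tested.

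Markers of cells outside the epithelium also moved with stage. Of all rows 24.2% rose and 30.9% fell. All 10 lymphocyte markers tested rose, with summed levels of 6.22 to 58.0 CPM in virgin and 39.9 to 101 CPM in lactating libraries, and CD6 was at 0 in some library. Of 13 macrophage markers 12 rose, with sums of 16.6 to 78.6 CPM and 132 to 594.5 CPM, which did not overlap. These sums rest largely on CD14, with means of 19.0 and 208 CPM, on a locus 25.9 times as long as the RefSeq gene. All 12 endothelial markers rose (35.2 to 806 CPM and 270 to 1825 CPM), and CLDN5 and EGFL7 were at 0 in some library. Of 6 neutrophil markers 3 rose, with sums of 35.0 to 358 CPM and 68.0 to 203 CPM, which rest largely on FCGR2B (means of 93.3 and 56.3 CPM). FCGR2B was at -0.73 (edgeR adjusted p 0.0690) and, without TMM factors, at -1.16 (0.00422). PTPRC, the leukocyte surface gene, rose by 1.59 (edgeR adjusted p 3.51e-06), CSF1R of macrophages by 2.11 (9.96e-08) and CDH5 of endothelium by 2.45 (6.59e-06).

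Epithelial markers were abundant at both stages. The 12 luminal markers summed to 2694 to 11786 CPM in virgin and 2020 to 5020 CPM in lactating libraries. Of these 3 rose and 6 fell, against 24.2% of all rows higher and 30.9% lower. KRT18 fell by 2.24 (edgeR adjusted p 7.30e-06), and EPCAM was at -0.11 (0.662). The luminal risers, named after their values were seen, were MUC1 (6.73), ELF5 (1.03) and KIT (0.79). Without TMM factors ELF5 was at 0.43 (edgeR adjusted p 0.165) and KIT at 0.32 (0.104). Of 9 basal markers 2 rose and 3 fell, with sums of 1326 to 8341 CPM and 1182 to 2555 CPM. KRT14, counted with KRT17, KRT16 and KRT42, fell by 1.24 (2.53e-04). KRT14 and KRT17 are both in the list, so 1 joined locus enters the sums and the falls 2 times. The other faller, KRT5, was counted with KRT75, KRT6A and KRT6B among others. The basal risers, named after their values were seen, were OXTR (1.22) and MYH11 (0.98, and 0.40 with edgeR adjusted p 0.112 without TMM factors). Of 5 adipocyte markers 3 rose and 1 fell. Named after their values were seen, LPL (5.73), FABP4 (4.38) and PLIN4 (1.05) rose and PLIN1 fell by 1.18. Without TMM factors PLIN4 was at 0.49 (edgeR adjusted p 0.175). Of 10 fibroblast markers 2 rose and 4 fell, a balance that turned to 4 higher and 1 lower without V502, whose fibroblast sum was 21604 CPM against a virgin median of 1031. With the animal as a block it was also 4 higher and 1 lower. Immune and endothelial cells express NF-kappaB genes too, and their part in the rise of NFKB1, TNFAIP3, NFKBIA, TNIP1 and BCL3 was not tested.

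The authors' deposited table lists its own fold changes, coded virgin minus lactating. In the authors' deposited table TNFAIP3 was at -1.70 (adjusted p 2.32e-08) and NFKB1 at -1.44 (2.27e-20), and the other 7 members had adjusted p-values of exactly 1. For NFKBIA, BCL3 and TNIP1 the authors' deposited table gave -0.87, -0.62 and -0.61.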

How the data were processed

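RNA was sequenced from 31 organoid libraries as strand-specific poly-A libraries with spike-in RNA, per the labels' protocols. The authors deposited whole-number read counts per gene, with no normalization, and these were used for every result. A second deposited table held RPKM values, the authors' log2 fold changes and their adjusted p-values, of which the RPKM served only to recover counted locus lengths. HISAT2 2.0, SAMtools, StringTie 1.3.2, featureCounts 1.5.2 (Subread), edgeR and build UMD3.1 are named per the submitters' processing notes, and their settings, strand included, are not given in these sources. Rows with the same counts in every library were taken as 1 joined locus, which left 13407 loci of 14084 rows. Locus lengths and neighbours were compared with the RefSeq gene table, whose assembly is another build, so no coordinates are printed.

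Counts were fitted with edgeR 4.0.16 in R 4.3.3 (filterByExpr with minimum count 10, 13180 rows kept and 904 left out, TMM, robust glmQLFit, glmQLFTest, stage as the only term). Depth ranges stand in the opening of the results, and no 2 libraries of a stage agreed within sampling noise (lowest chi-square per degree of freedom 36.8 virgin, 47.7 lactating). Replicates of a stage are different cows, with 1 library each. The animal number pairs the libraries, since both come from 1 cow. After removal of stage means, each lactating library correlated with the virgin library of its own animal at 0.0649 to 0.398, over 0.1 in 12 of 15 pairs. Ratios (0.5 added to counts) and correlations of log2 CPM (prior count 2) used two-sided permutation tests with 100000 resamples (scipy 1.17.1). Of 8 planned ratios 7 were made, as the one with NFKBIZ was not. Before use, the edgeR script was tested on simulated counts. Alternatives were the animal as a block, no TMM factors, DESeq2 1.42.0, limma-voom 3.58.1, other filters, each locus once, milk protein rows left out, and leaving out single libraries, L478 with L538, or the 5 animals whose virgin titles carry a letter.

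Members and gene lists were chosen with earlier results of these data known. All members are named. From each pathway, target and digestion list the 3 genes with the smallest p are named, plus the called gene with the smallest p against the list's main direction. PTPRC, CSF1R, CDH5, KRT18 and KRT14 stand for the marker lists. The 8 most alike genes were taken by their mean correlation with the members, among genes whose mean log2 CPM reached 2.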

Additional observations from a re-analysis of the deposited data

How the results depend on the processing

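TMM scaling was the choice that mattered most. Without TMM factors 2 members rose and 1 fell, 13 pathway genes rose and 24 fell, and 5 target genes fell. Of all rows 10.5% then rose and 58.8% fell. The log2 fold changes of NFKB2, REL and RELA then turned to -0.22, -0.15 and -0.22. NFKB1 and TNFAIP3 kept direction and call under all 11 other settings and all 31 fits with 1 library left out, at 0.98 to 1.53 and 1.17 to 1.86 over the settings. NFKBIA, TNIP1 and BCL3 lost their call under 1 setting, the one without TMM factors. RELB was called lower, at -0.44, without TMM factors, and changed sign in other settings: 0.048 with the animal as a replicate block, 0.046 with limma-voom, 0.057 without the animals with lettered titles, 0.12 without V478 and V479, and -0.074 to 0.048 with 1 library left out. Over these fits the count of members that rose was 5 to 7, the highest without V479.

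The replicate block changed the call of 1 member, RELA, and turned the ratio of NFKBIA to RELA to 0.67 without a call. Among genes named here it also ended the calls of TNF and HSPA1A and called BCL2L1 lower (-0.40), and it changed no other call of a named gene. The ratio of REL to RELA was -0.013 without L478 and L538 and ranged from -0.11 to 0.13 with 1 library left out, and that of RELB to RELA from -0.33 to -0.19. Without L478 and L538, 4 target genes fell, the added ones being CD44 and BCL2L1. Without TMM factors these 2 were also called lower, CD44 at -0.76 (edgeR adjusted p 7.67e-04) and BCL2L1 at -0.84 (0.00153). The same-animal correlations, none of which passed, turned to -0.083 (NFKB1), -0.13 (NFKB2), -0.31 (RELA) and -0.018 (RELB) without TMM factors. Without lettered animals they were -0.33 (NFKB1) and -0.0021 (NFKB2). The cause of these changes was not tested.

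Joined loci, locus lengths drawn from another build and unknown strand settings limit NFKB2, RELB and REL most. Depth does not limit the members, whose lowest count was 462.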
